A study of Mus musculus with 8 samples.

Results

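Extl3 and the other enzymes that build heparan sulfate were examined in mouse leukaemic cells with and without induced loss of Runx1 and Cbfb. The members are 9 genes, Extl3, Extl1, Extl2, Ext1, Ext2, Ndst1, Ndst2, Glce and Hs2st1, each read from the brightest probe set that the platform annotation gives to that gene alone. Of these 9, 8 were found, each with 1 probe set, among 19938 genes measured in all, and Ndst1 was not analysed here. Extl3 was selected on its measured difference between the groups of these arrays, and the others because they act on the same chain. The change of the members between the groups is therefore a description, with no p-value.

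The cells came from bone marrow positive for c-Kit, of mice that carry floxed alleles of both Runx1 and Cbfb. They were transduced with MLL-AF9, an oncogenic fusion protein that sustains growth of myeloid progenitors, and with CreERT2, a Cre recombinase activated by 4-hydroxytamoxifen (4OHT), and were selected with puromycin over several replatings. Control cultures received ethanol and the others 4OHT at 1 µM, all in cytokine-containing methylcellulose, and RNA was taken at 24 h. There were 4 arrays per group, 2 biological replicates of each of 2 clones, and a set is the control and the 4OHT culture of 1 clone and replicate number. All cells of both groups carry the floxed alleles, MLL-AF9 and CreERT2. No culture had 4OHT without floxed alleles, so the deletion and 4OHT with active Cre cannot be told apart. For the age of the mice and the promoters of the vectors, the sources used here give nothing.

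The 8 arrays had medians between 6.26 and 6.39 on the log2 scale, and correlations across probe sets of 0.977 to 0.997. Runx1 signal rose by 0.52 ± 0.04 (SE, n = 4 sets; limma adjusted p = 1.64e-05) in the 4OHT cultures, against their label. Cbfb was at -0.18 ± 0.05 and did not pass (limma adjusted p = 0.128). A whole-transcript probe set can lie outside the deleted exons, so these values do not test the deletion, and the 4OHT arrays are called labelled deleted throughout. All 9 fixed markers of myeloid progenitors had a probe set, among them the neutrophil elastase gene Elane at a mean log2 level of 13.32. Their summed signal was 15.20 to 15.31 in control arrays and 15.12 to 15.30 in arrays labelled deleted, as log2 of the sum. Such a sum mostly reflects the brightest genes of a list and does not describe the others. Of the 9 markers, 4 fell and 1 rose between the groups, and Cd34 averaged 5.85 in clone 1 controls.

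Heparan sulfate is a long sulfated sugar chain attached to core proteins at the cell surface and in the matrix, where it binds growth factors, chemokines and adhesion proteins. Synthesis in the Golgi starts on a short linker of sugars. EXTL3 adds the first N-acetylglucosamine and so commits the linker to heparan sulfate rather than chondroitin sulfate, EXT1 and EXT2 together extend the chain, and NDST, GLCE and HS2ST1 enzymes then modify it. In marrow, such chains on stromal and blood cells help to hold chemokines and cytokines.

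Extl3 signal was higher in every array labelled deleted than in any control array. In clone 1 the control arrays had log2 levels of 6.09 (replicate 1) and 6.30 (replicate 2), and the arrays labelled deleted had 7.13 and 7.05. In clone 2 the control arrays had 6.77 and 6.89, and the arrays labelled deleted had 8.04 and 7.97. All 4 arrays labelled deleted were thus above all 4 controls, with 0.16 between the lowest of the former and the highest of the latter. Control arrays averaged 6.51 ± 0.38 (SD, n = 4) on the log2 scale, and arrays labelled deleted averaged 7.55 ± 0.53 (SD, n = 4). The fitted log2 difference was 1.04 ± 0.09 (SE, n = 4 sets), or 2.05-fold. It was the 4th largest rise among the 19938 genes, which describes the choice of Extl3 and is not a result about it.

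The rise of Extl3 was present in 4 of 4 sets and varied among them. The log2 differences were 1.04 and 0.75 in the clone 1 sets of replicates 1 and 2, and 1.27 and 1.08 in those of clone 2, a range of 1.68-fold to 2.41-fold. Their SD was 0.21. Fitted per clone, the difference was 0.90 ± 0.13 (SE, n = 2 sets) in clone 1, or 1.86-fold, and 1.17 ± 0.13 (SE, n = 2 sets) in clone 2, or 2.26-fold. The clone 2 change exceeded that of clone 1 by 0.28 ± 0.19 (SE), which did not pass (limma adjusted p = 1.00 after Benjamini-Hochberg adjustment over all genes). The size of the rise was thus not resolved between the clones.

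**Figure D1:**
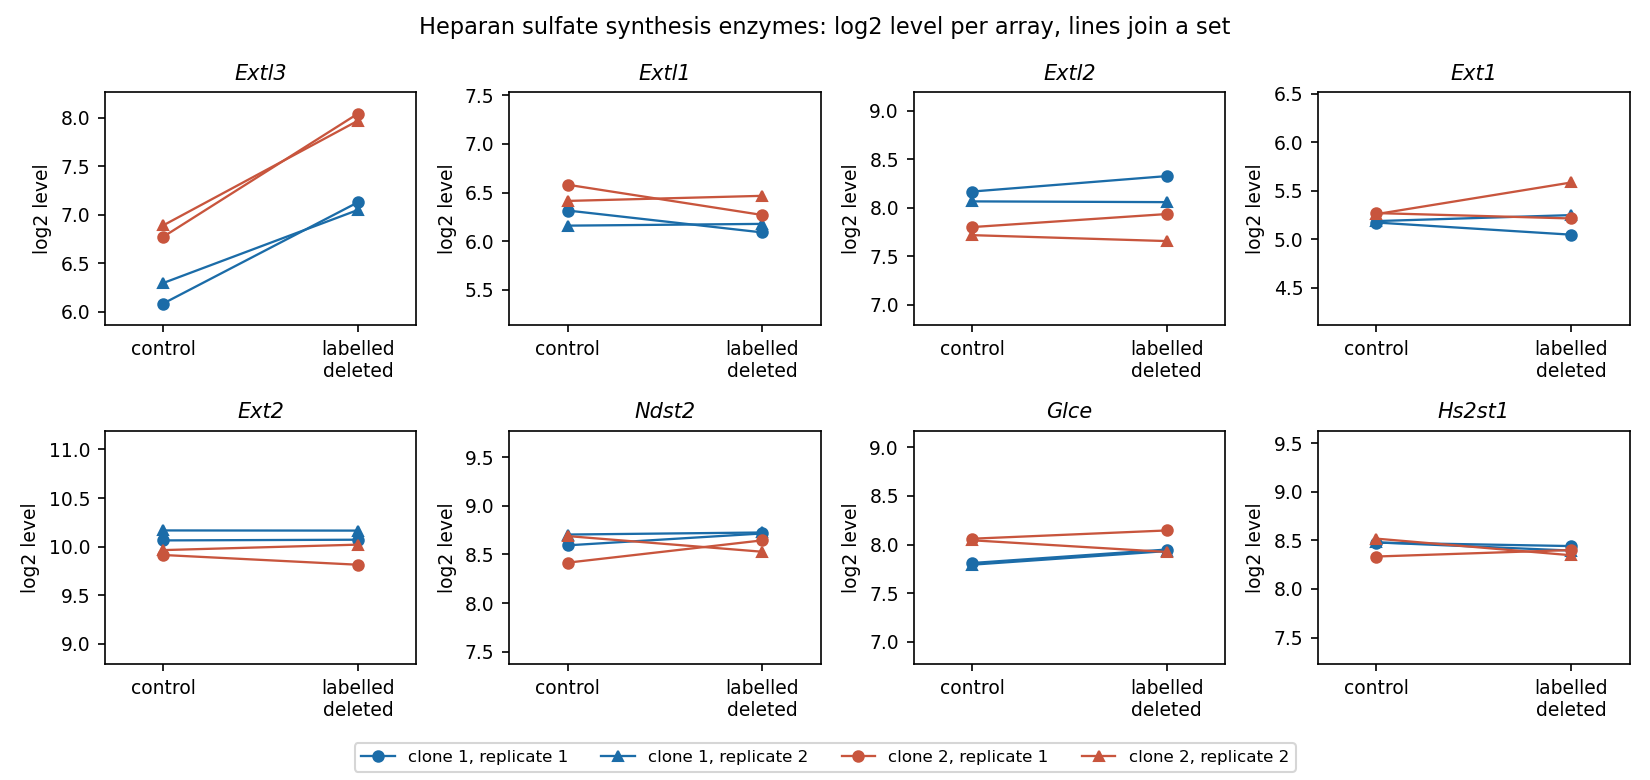
Log2 level of each gene (vertical axis, each panel spanning the same range of log2 units around its own centre) in the control and the labelled deleted array of each set, joined by a line. Blue is clone 1, red is clone 2, circles are replicate 1 and triangles replicate 2. The 4 Extl3 lines all climb, from 6.09 to 6.89 in controls to 7.05 to 8.04, while the lines of the other 7 genes stay close to level or cross.

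The order of the 4 clone and group combinations for Extl3 was clone 1 control, clone 2 control, clone 1 labelled deleted, clone 2 labelled deleted, with no overlap between neighbours. The arrays within a combination differed by 0.07 to 0.21. The gap between clone 1 and clone 2 controls was 0.48, and that between clone 1 and clone 2 arrays labelled deleted was 0.84. The gap between clone 2 controls and clone 1 arrays labelled deleted was 0.16, which is less than the 0.21 between the clone 1 controls. Those neighbours are thus not apart beyond the spread within a combination.

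The 2 other EXT-like genes overlapped between the groups. Extl1 encodes a transferase that can add N-acetylglucosamine to a growing chain. In clone 1 it was at log2 levels of 6.31 and 6.16 in control arrays and 6.09 and 6.18 in arrays labelled deleted, and in clone 2 at 6.58 and 6.41, then 6.27 and 6.47. The difference was negative in 2 sets and positive in 2, and the fitted log2 difference was -0.12 ± 0.09 (SE, n = 4 sets). Both sets of replicate 1 were lower (-0.23 and -0.31), and both of replicate 2 were close to 0 (0.02 and 0.05).

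Extl2 encodes an enzyme that can cap the phosphorylated linker with N-acetylglucosamine, which stops the chain. Its log2 levels in clone 1 were 8.17 and 8.07 in control arrays and 8.33 and 8.06 in arrays labelled deleted, and in clone 2 they were 7.80 and 7.72, then 7.94 and 7.66. The difference was positive in 2 sets and negative in 2, with a fitted log2 difference of 0.06 ± 0.07 (SE, n = 4 sets). The clones lay further apart than the groups did.

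Both chain polymerase genes overlapped between the groups. Ext1 and Ext2 encode the partners of the complex that adds glucuronic acid and N-acetylglucosamine in turn, and loss of either gene in people causes hereditary multiple exostoses. Ext1 control arrays had log2 levels of 5.17, 5.19, 5.27 and 5.26 (clone 1 replicates 1 and 2, then clone 2), and the arrays labelled deleted had 5.05, 5.25, 5.21 and 5.58. The last value, clone 2 replicate 2, was the highest of the 8, and the other 7 arrays lay within 5.05 to 5.27. The fitted log2 difference of Ext1 was 0.05 ± 0.09 (SE, n = 4 sets), with single sets from -0.13 to 0.33. All of its levels lay below the array medians of 6.26 to 6.39, so the probe set is dim and a change could have been missed.

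Ext2 had the smallest SD of the set differences among the 8 members, 0.07. Its control arrays had log2 levels of 10.06, 10.17, 9.91 and 9.96, in the same order, and the arrays labelled deleted had 10.07, 10.17, 9.81 and 10.02. The fitted log2 difference was -0.01 ± 0.04 (SE, n = 4 sets), and no set differed by more than 0.10 in size.

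The modifying enzymes also overlapped between the groups. Ndst2 encodes an N-deacetylase and N-sulfotransferase best known for making heparin in mast cells. Its log2 levels were 8.59, 8.71, 8.42 and 8.69 in control arrays and 8.72, 8.73, 8.65 and 8.53 in arrays labelled deleted. The difference was positive in 3 sets and negative in 1, and the fitted log2 difference was 0.05 ± 0.07 (SE, n = 4 sets). Of the mast cell, basophil and related genes fixed as markers (Cpa3, Cma1, Tpsb2, Tpsab1, Mcpt4, Fcer1a, Ms4a2 and Mcpt8), all 8 were measured and none passed in limma (1 at an unadjusted p under 0.05). Their summed log2 signal was 8.84 to 9.50 in control arrays and 8.73 to 9.33 in arrays labelled deleted.

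Glce encodes the epimerase that turns glucuronic acid into iduronic acid. It was at log2 levels of 7.81, 7.79, 8.06 and 8.04 in control arrays and 7.95, 7.93, 8.14 and 7.92 in arrays labelled deleted. The set differences were 0.14 and 0.14 in clone 1 and 0.09 and -0.12 in clone 2, which gave 0.06 ± 0.07 (SE, n = 4 sets). Hs2st1 encodes the enzyme that adds sulfate to those iduronic acids. It was at 8.48, 8.48, 8.33 and 8.52 in control arrays and at 8.44, 8.39, 8.40 and 8.35 in arrays labelled deleted. The difference was negative in 3 sets and positive in 1, and the fitted log2 difference was -0.06 ± 0.06 (SE, n = 4 sets).

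**Figure D2:**
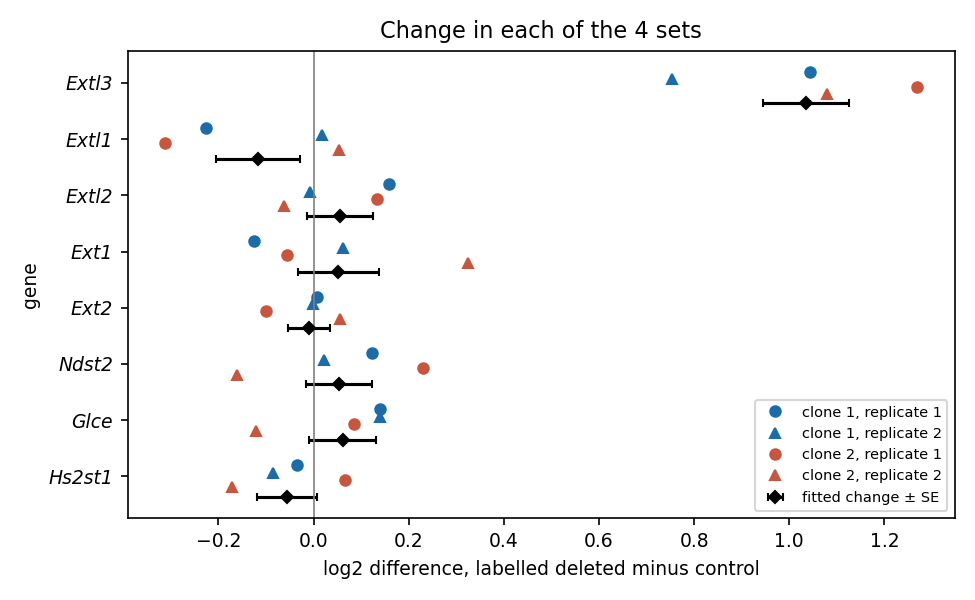
Log2 difference between the labelled deleted and the control array of each set (horizontal axis) for the 8 genes. Coloured points are single sets, and black diamonds with bars are the fitted change and its SE. Extl3 lies at 0.75 to 1.27 in its sets, and the fitted changes of the other 7 genes lie between -0.12 and 0.06.

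Of the 8 members, 1 passed in the fit over all genes, Extl3, and it was higher. Over all 19938 genes 190 passed, or 0.953%, with 0.481% higher and 0.471% lower. The groups did not overlap for 1 of the 8 members, against 1.17% of all genes. The choice of Extl3 fixed both counts, so nothing is read from them. None of the other 7 moved the same way in all 4 sets, and their median change of 0.05 compares with 0.00 over all genes. The median size of change was 0.06 over the 8 members and 0.04 over all genes. The count of 1 was 0 in the fit with neither set nor clone as a covariate and when all 35556 probe sets were tested, with 1 member at an unadjusted p under 0.05 in limma in each case. With clone as the only covariate it stayed 1.

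Sets of the same replicate number resembled each other in several members. For 5 of the 8 (Extl1, Extl2, Ext1, Ndst2 and Hs2st1), the set differences of replicate 1 and of replicate 2 did not overlap, 3 being higher and 2 lower in replicate 1. The same held for 52.4% of all genes, so the members' share is near that background. The set block does not remove a likeness of set differences by replicate number. Each SE and p-value between the groups treats the set differences as independent, and may be too small for that reason. For Extl3 the mean of the set differences was 1.16 in replicate 1 and 0.92 in replicate 2, with overlap. In all genes, the control and labelled deleted arrays of a set deviated together from their group means (r between 0.72 and 0.82). These deviations include the differences between clones. After clone means were removed, r was 0.44 in clone 1 and 0.25 in clone 2.

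The level of the genes in the 2 clones was not used to choose them and was tested. Extl3 was higher in clone 2 than in clone 1 in both groups. Among control arrays the log2 difference, clone 2 minus clone 1, was 0.64 ± 0.12 (SE, n = 2 arrays per clone; limma adjusted p = 0.0153), or 1.56-fold, from means of 6.19 and 6.83. Among arrays labelled deleted it was 0.92 ± 0.12 (limma adjusted p = 0.00155), or 1.89-fold, with clone 1 at a mean of 7.09. Extl3 was thus the 1 member of 8 that passed in each group, while 3.97% of all genes passed among controls (1.60% higher and 2.37% lower in clone 2) and 5.25% among arrays labelled deleted (1.82% higher and 3.43% lower).

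The difference among controls rests on few arrays. It ran from 0.53 to 0.75 when each set was left out in turn and passed in 0 of these 4 fits: the limma adjusted p was 0.275 without clone 1 replicate 1, 0.0700 without clone 1 replicate 2, 0.0519 without clone 2 replicate 1 and 0.124 without clone 2 replicate 2. In 7 other alternatives it ran from 0.00191 to 0.0640, the last with all probe sets tested. The difference among arrays labelled deleted passed in each of these 11 alternatives, with adjusted p of 0.000788 to 0.0263. These fits count the control and the labelled deleted array of a set as independent, although they deviated together also after clone means were removed (r = 0.44 in clone 1 and 0.25 in clone 2), so the p-values may be too small. In fits on the arrays of 1 group only, chosen after the data were seen, the limma adjusted p was 0.00847 among controls and 0.00769 among arrays labelled deleted.

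Other members differed less between clones and did not pass. Extl2 was lower in clone 2 in both groups, by -0.36 ± 0.14 among controls (limma adjusted p = 0.277) and -0.40 ± 0.14 among arrays labelled deleted (0.156). Its 2 clones did not overlap in either group, which also held for Extl3, Extl1 and Ext2. The share of all genes for which this held was not counted, so nothing is read from it. Extl1 stood at 0.26 ± 0.13 among controls, Glce at 0.25 ± 0.11 and Ext2 at -0.18 ± 0.09 (SE), while Ext1, Ndst2 and Hs2st1 lay between -0.10 and 0.08. The direction of these 7 differences was the same among arrays labelled deleted. No member passed for a difference of the change between clones (0 of 8, none at an unadjusted p under 0.05 in limma), where 0.0100% of all genes passed.

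**Figure D3:**
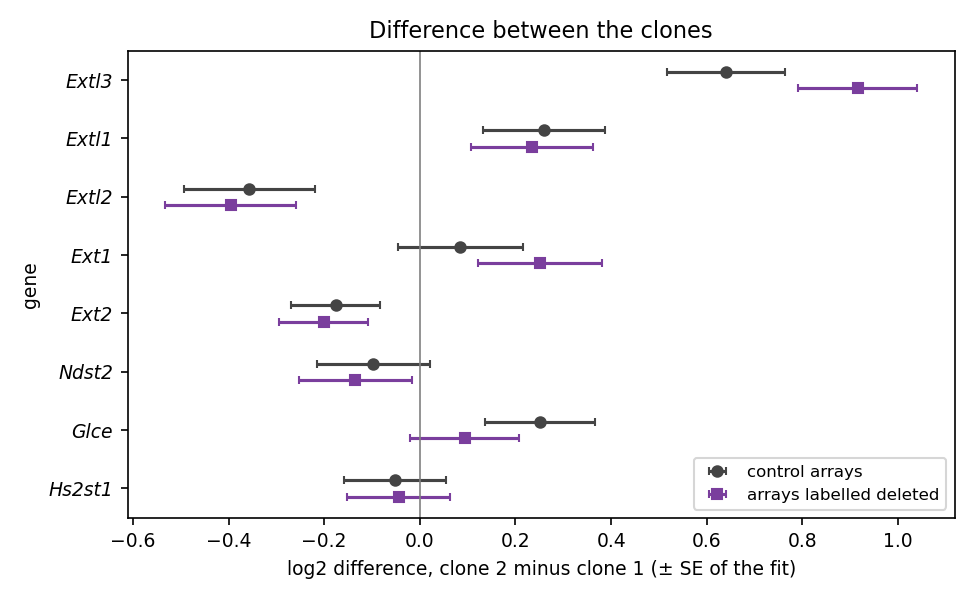
Log2 difference between clone 2 and clone 1 (horizontal axis) for the 8 genes, among control arrays (grey circles) and arrays labelled deleted (purple squares), with the SE of the fit as bars. Extl3 is the gene furthest to the right in both groups, at 0.64 and 0.92, and Extl2 the furthest to the left, at -0.36 and -0.40.

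The clones also differed in some cell markers. Among controls, Cd34 was the 1 of 9 myeloid progenitor markers that passed, and Cd79b the 1 of 6 lymphoid markers. Cd34, a surface protein of progenitors, had a mean log2 level of 5.85 in clone 1 controls and 11.33 in those of clone 2, and Cd79b, a B cell receptor subunit, 6.47 and 9.46. The platelet gene Gp9, 1 of 5 megakaryocyte markers, was also higher in clone 2, at 0.70. The mast cell receptor gene Ms4a2 (-0.96, 1 of 8) and the endothelial gene Pecam1 (-1.04, 1 of 6) were lower. Over all genes 3.97% passed among controls. Of the 6 endothelial markers 3 were above 0 and 3 below. Eng, 1 of them, was at 0.47 among controls (limma adjusted p = 0.0814). Among arrays labelled deleted it was at 0.60 and passed as higher (limma adjusted p = 0.0191). No stromal or erythroid marker passed between the clones. The part of such differences in the Extl3 levels was not tested. In bulk cultures, fewer cells of a type and less RNA per cell cannot be told apart.

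The rest of the pathway was described from 6 lists with 80 genes, of which 79 were measured. Over these, 3 rose and 4 fell in arrays labelled deleted and 72 did not pass, which is 8.86% passed beside 0.953% of all genes. Every one of the 7 moved the same way in 4 of 4 sets, which largely restates the calls, since these rest on the same set differences. None of the 79 passed for a difference of the change between clones in limma (2 at an unadjusted p under 0.05). The lists were drawn up with earlier results of these arrays known, so the share is given as a count and no more.

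Linker and precursor genes came first. Of 18 genes, which make the linker or supply sugars and sulfate, 1 rose, none fell and 17 did not pass, with a median log2 change of -0.04 against 0.00 over all genes. The one that rose was Papss2, which makes the sulfate donor used by all sulfotransferases. Papss2 was at log2 levels of 9.81, 10.09, 8.14 and 8.49 in control arrays (clone 1 replicates 1 and 2, then clone 2) and 10.06, 10.43, 8.55 and 8.63 in arrays labelled deleted. Each array labelled deleted was above its own control, while the clones lay far apart and the groups overlapped. The log2 difference was 0.29 ± 0.06 (SE, n = 4 sets; limma adjusted p = 0.0298), or 1.22-fold. The Papss2 call ended without clone 1 replicate 1 (0.30, limma adjusted p = 0.0816), clone 1 replicate 2 (0.27, 0.345) or clone 2 replicate 1 (0.25, 0.167). Its limma adjusted p ran from 0.000417 to 1.00 over 13 alternatives, and it passed in 6 of them.

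Of 14 other modification genes, 1 rose, none fell and 13 did not pass, with a median of -0.03. It was Hs6st1, which adds sulfate to the glucosamines of the chain. Hs6st1 control arrays were at 7.56, 7.56, 7.70 and 7.92, and arrays labelled deleted at 7.79, 7.87, 8.10 and 8.29. The change was 0.32 ± 0.07 (SE, n = 4 sets; limma adjusted p = 0.0456), or 1.25-fold, higher in 4 of 4 sets. The Hs6st1 call ended without clone 1 replicate 1 (0.35, limma adjusted p = 0.0714), clone 1 replicate 2 (0.33, 0.299) or clone 2 replicate 1 (0.30, 0.310). Its limma adjusted p ran from 0.00976 to 1.00 over 13 alternatives, and it passed in 5 of them.

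Among 15 core proteins, which carry the chains, none rose, 1 fell and 14 did not pass, with a median of 0.03. Tgfbr3, which encodes the transforming growth factor beta co-receptor betaglycan, fell from 9.09, 8.83, 7.31 and 7.31 in control arrays to 8.86, 8.26, 6.85 and 6.97. The log2 difference was -0.40 ± 0.07 (SE, n = 4 sets; limma adjusted p = 0.0210), 1.32-fold lower. Its call ended without clone 1 replicate 2 (-0.34, limma adjusted p = 0.302) and without clone 2 replicate 1 (-0.38, 0.0990). Its limma adjusted p ran from 0.00118 to 1.00 over 13 alternatives, and it passed in 7 of them.

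Of 9 genes of heparan sulfate breakdown, 1 rose, none fell and 8 did not pass, with a median of 0.04. Sgsh, the lysosomal sulfamidase that removes N-linked sulfate from heparan sulfate, was the gene with the largest rise of the 79. Its control arrays had log2 levels of 8.36, 8.42, 8.49 and 8.72, and the arrays labelled deleted had 8.93, 8.89, 9.01 and 9.11. The groups did not overlap, and the log2 difference was 0.49 ± 0.06 (SE, n = 4 sets; limma adjusted p = 0.00128), or 1.40-fold. The rise passed in all 4 fits with a set left out, with limma adjusted p up to 0.00880, and in 11 of 13 alternatives. It did not pass in the fit with neither set nor clone as a covariate. Nor did it pass with all probe sets tested (limma adjusted p = 0.155).

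Chondroitin sulfate grows on the same linker as heparan sulfate, and its synthesis genes were the list with most calls. Of 16 genes, none rose, 3 fell and 13 did not pass; the median was -0.07, and 11 of the 16 were below 0. Chst13, a sulfotransferase of chondroitin, fell from 10.78, 10.81, 10.57 and 10.66 to 10.41, 10.43, 10.24 and 10.45, without overlap. Its log2 difference was -0.32 ± 0.04 (SE, n = 4 sets; limma adjusted p = 0.00154), 1.25-fold lower. The Chst13 call held with each set left out and in 9 of 13 alternatives, over which its adjusted p ran from 8.81e-06 to 1.00.

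The other 2 that fell make the chain itself. Csgalnact2, which starts chondroitin by adding the first N-acetylgalactosamine to the linker, changed by -0.30 ± 0.05 (SE, n = 4 sets; limma adjusted p = 0.0124), 1.23-fold lower. Its levels were 10.34, 10.52, 10.25 and 10.48 in control arrays and 10.22, 10.22, 9.92 and 10.03 in arrays labelled deleted. Chsy1, a chondroitin polymerase, changed by -0.20 ± 0.04 (SE, n = 4 sets; limma adjusted p = 0.0313), 1.15-fold lower, with levels of 11.94, 11.96, 11.87 and 11.92, then 11.85, 11.86, 11.52 and 11.66. The set differences of Chsy1 were -0.09 and -0.10 in clone 1 and -0.35 and -0.27 in clone 2. The change in clone 2 minus that in clone 1 was -0.21 ± 0.06 (SE), which did not pass over all genes. The Csgalnact2 call ended without clone 1 replicate 2 (-0.30, limma adjusted p = 0.0686), and that of Chsy1 without clone 2 replicate 1 (-0.15, 0.121). Over 13 alternatives the limma adjusted p ran from 0.000996 to 1.00 for Csgalnact2 and from 0.0123 to 1.00 for Chsy1. Each gene passed in 8 of these 13.

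EXTL3 protein is also known as a receptor for secreted proteins of the REG family. Of 7 Reg genes none passed in limma (none at an unadjusted p under 0.05), with a median log2 change of 0.05. Their mean log2 levels in control arrays were low, from 3.97 (Reg3d) to 5.07 (Reg1), below the array medians of 6.26 to 6.39. A change of genes this dim could have been missed. The smallest p was that of Reg2, at 0.12 ± 0.07 (SE, n = 4 sets).

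**Figure D4:**
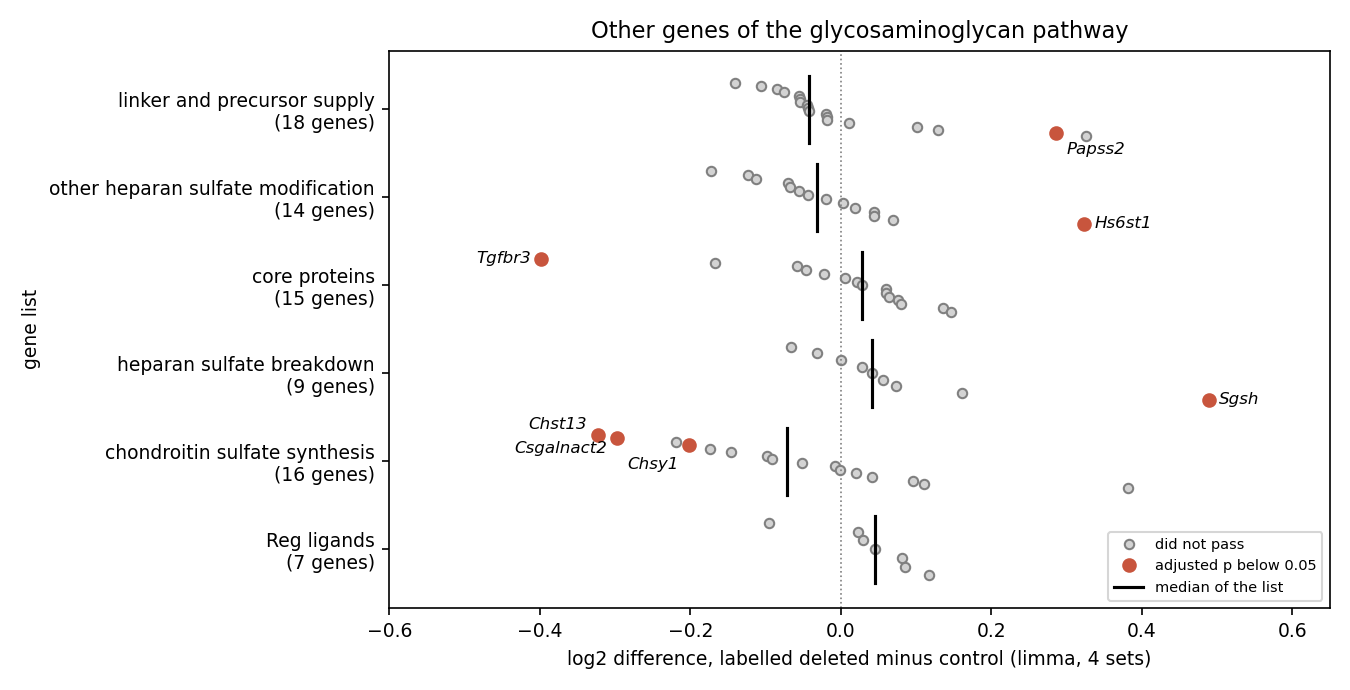
Log2 difference, labelled deleted minus control (horizontal axis), of the 79 measured genes in the 6 pathway lists, each point a gene. Filled red points passed in limma and are named, grey points did not pass, and black bars are list medians. The calls are spread over 5 lists, with Sgsh at 0.49 furthest to the right and Tgfbr3 at -0.40 furthest to the left.

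Markers of the cultured cells moved with the groups. Of 9 myeloid progenitor markers, 4 fell (Prtn3, Kit, Itgam and Ms4a3), 1 rose (Csf3r) and 4 did not pass, beside 0.953% of all genes that passed. Their part in the values above was not tested. Of the lists for mast cells, stroma, endothelium, megakaryocytes, erythroid cells and lymphocytes, no gene passed between the groups in limma (3 at an unadjusted p under 0.05). Stromal genes such as Col1a1 and Dcn are of interest here because stroma is rich in heparan sulfate. The 8 stromal genes summed to a log2 signal of 9.03 to 9.24 in control arrays and 8.92 to 9.44 in arrays labelled deleted. The values carry no detection call, so no marker can be called absent.

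Between the clones, 6 of the 79 pathway genes passed among controls, 1 higher and 5 lower in clone 2, which is 7.59% beside 3.97% of all genes. Among arrays labelled deleted 10 passed, none higher and all lower, or 12.7% beside 5.25%. Over all genes, too, more were lower than higher in clone 2. These were 2.37% lower and 1.60% higher among controls, and 3.43% and 1.82% among arrays labelled deleted. The lists were drawn up with earlier results of these arrays known, and the clone p-values may be too small. The shares are therefore given as counts and no more. Among controls, Papss2 (-1.63 ± 0.16, SE) and Tgfbr3 (-1.65 ± 0.18) differed most, followed by the syndecan gene Sdc2 (-1.27 ± 0.21). The lysosomal genes Ids (-0.67 ± 0.13), an iduronate sulfatase, and Hgsnat (-0.63 ± 0.10), an acetyltransferase of heparan sulfate breakdown, were also lower. Dsel, a dermatan sulfate epimerase-like gene, was higher (0.67 ± 0.14). The limma adjusted p of these 6 ran up to 0.0245, for Dsel. Among arrays labelled deleted the 5 lower genes also passed, and Dsel, at 0.33 ± 0.14, did not (limma adjusted p = 0.257). Genes that passed only there included Uap1 (-0.53 ± 0.10, SE) and Papss1 (-0.62 ± 0.12) of the linker and precursor list. Chst11 (-0.62 ± 0.11) and Chsy1 (-0.27 ± 0.06) of the chondroitin list did so too, with limma adjusted p up to 0.0249.

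The genes whose level followed that of Extl3 most closely over the 8 arrays were Lrrc49 (Pearson r = 0.985), Zfp444 (0.975), Tmem236 (0.968), the protocadherin gene Pcdh7 (0.963) and Unc93b1 (0.961), a trafficking protein of Toll-like receptors. The arrays share 2 clones and 2 groups, so r mostly restates those differences and is given without a p. The sizes of change differed widely. Lrrc49 changed by 0.20 ± 0.07 between the groups, Zfp444 by 0.07 ± 0.07 and Unc93b1 by 0.14 ± 0.04, against 1.08 ± 0.10 for Pcdh7 (SE, n = 4 sets). Pcdh7 also resembled Extl3 between clones, at 1.06 among controls.

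Csgalnact1 had the most opposite pattern of all named genes (r = -0.974), followed by Mob3a (-0.972) and Tex2 (-0.959). Csgalnact1 encodes the other enzyme that starts chondroitin on the linker. Its log2 levels were 5.29, 5.24, 5.14 and 5.11 in control arrays and 5.03, 5.12, 4.96 and 4.96 in arrays labelled deleted. All of these lay below the array medians of 6.26 to 6.39, so the probe set is dim. Csgalnact1 was lower in the labelled deleted array of 4 of 4 sets, at -0.17 ± 0.07 (SE, n = 4 sets), and did not pass. It was picked as an extreme among all genes tested, so its r describes that choice. Among the members, r with Extl3 ran from -0.54 for Hs2st1 to 0.63 for Glce.

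**Figure D5:**
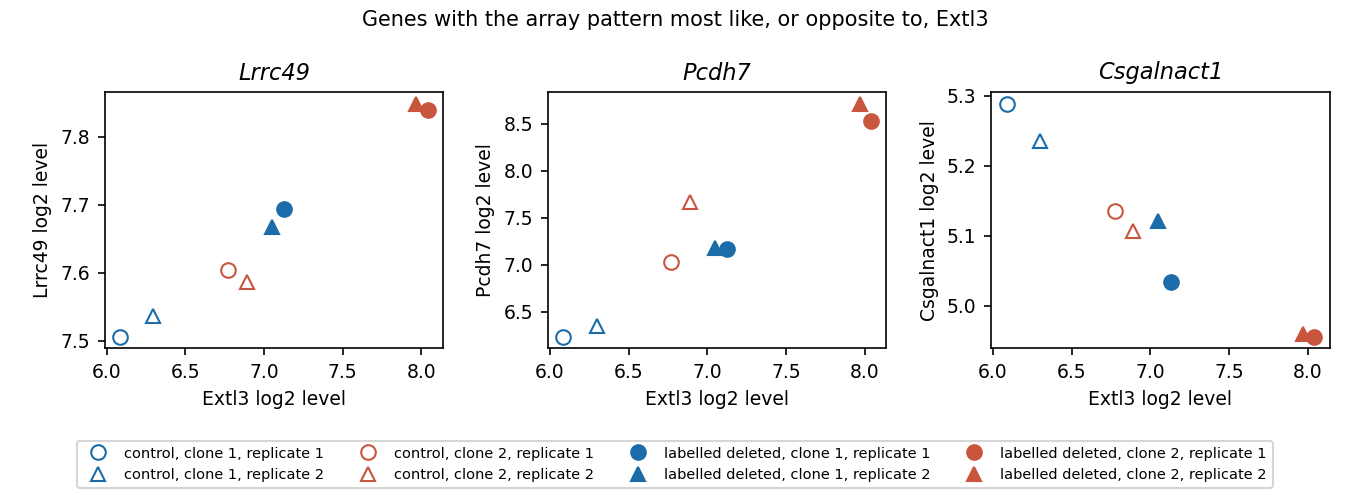
Log2 level of Lrrc49, Pcdh7 and Csgalnact1 (vertical axes, each with its own range) against that of Extl3 (horizontal axis) in the 8 arrays. Open symbols are control arrays, filled symbols arrays labelled deleted, blue is clone 1, red is clone 2, circles are replicate 1 and triangles replicate 2. Points climb for Lrrc49 and Pcdh7 and descend, from 5.29 to 4.96, for Csgalnact1.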

How the data were processed

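Total RNA of 8 cultures was measured on Affymetrix arrays after whole-transcript labelling, per the labels' protocols. The deposited log2 values were made by the authors with RMA (robust multi-array average), per the submitters' processing notes. No version of RMA or chip definition was given in these sources; the log base follows from the range of the values, 2.60 to 13.77. Of 35556 probe sets, 21789 had 1 gene symbol in the platform annotation, and the brightest per gene gave 19938 genes. Entrez identifiers were checked in RefSeq.

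Fits used limma 3.58.1 in R 4.3.3 with a variance trend, a two-sided test and a threshold of 0.05 after adjusting over all genes by Benjamini-Hochberg. The set was a block because the series' design text compares 4 sets; titles give the match by clone and number. The clone comparison used 4 clone and group combinations without the block. Fits were tested on simulated data. Each SE is moderated and borrows spread from other genes (3 residual and 9.72 prior degrees of freedom), so it can be too small where sets disagree. The number of arrays limits precision, and p-values measure spread between these cultures only. RMA summaries shrink changes of dim probe sets.

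The rule named all members, genes past the threshold in each pathway list (of a list with none, that with the smallest p), members and up to 3 genes per list past it between clones, and the 5 genes most and 3 least correlated with Extl3. Names of models or clones were skipped. Members and lists were chosen with earlier results of these data known. No sequence is shown.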

Additional observations from a re-analysis of the deposited data

Results flagged for a closer look

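Glce in the array labelled deleted of clone 2 replicate 1 stood apart from its group. Its log2 level was 8.14, while the other 3 arrays of the group lay between 7.92 and 7.95. It was the only one of 24 groups of 4 values (levels per group and set differences of the 8 genes) with such a gap, and chance gives about 1 in 20 groups.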

How the results depend on the processing

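The change of Extl3 lay between 0.96 and 1.13 in all 13 alternatives, and all 102 alternative values of the 8 members' changes moved by less than the SD of their set differences. Most of these values could not have moved further. Alternatives that alter only the model or the genes tested leave the fitted difference as it was, and leaving out a set moves it by less than that SD. Nothing is therefore read from this count. Counts moved more. Without the replicate block or clone, 0 of 19938 genes (317 at an unadjusted p under 0.05, limma), 0 members (1 unadjusted) and 0 of 79 pathway genes (6 unadjusted) passed between the groups, and with clone as the only covariate 23 genes and 1 pathway gene did. Without the variance trend the counts were 13 genes and 1 pathway gene, and 0 genes for the difference between clones (304 unadjusted). Array weights gave 388 genes between the groups, 4 for the difference between clones, 1599 between clones among controls and 567 among arrays labelled deleted. With all probe sets tested in limma, the counts were 0 between the groups (1834 unadjusted), 0 members (1 unadjusted), 0 pathway genes (14 unadjusted), 0 for the difference between clones (776 unadjusted), 477 and 599 between clones, and 0 members among controls (2 unadjusted). Genes above the median level gave 1 for the difference between clones. Fits on the arrays of 1 group, chosen after the data were seen, gave 1241 between clones among controls. Leaving out each set in turn gave 98 to 418 genes between the groups, 3 to 9 pathway genes, 5 to 224 for the difference between clones, 385 to 588 between clones among controls, 382 to 1542 among arrays labelled deleted, and 0 members among controls (1 or 2 unadjusted, limma). A set left out leaves 1 set in its clone, which is then assumed to vary like the others. The causes were not tested. Of 91 alternative values of the 7 pathway genes that passed, 37 no longer passed and none changed sign.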
